A study of Mus musculus with 16 samples.

Results

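The 10 genes described here encode costimulatory molecules and immune checkpoint proteins of myeloid cells, and they were chosen by name from the 18580 genes to which the deposited transcripts were summed. They comprise the costimulatory ligands Cd80 and Cd86, the costimulatory receptor Cd40, the inhibitory ligands Cd274 (PD-L1) and Pdcd1lg2 (PD-L2), Vsir (VISTA), which acts as both ligand and receptor, and the inhibitory receptors Havcr2 (TIM-3), Lag3, Cd200r1 and Sirpa. All 10 were found in the tables. The rule for the list uses names and no values, but the list was drawn up with earlier results of these data known.

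Macrophages (CD11b+, CD45 high) and microglia (CD11b+, CD45 low to intermediate) were sorted from brains of male and female mice 2 months after bilateral intrastriatal injection of α-syn MONO (monomers) or α-syn PFF (pre-formed fibrils). The mice were CD163KO, which carry the CD163tm1.1(KOMP)Vlcg allele in all cells, or their WT C57BL/6N littermates, and were 12 weeks old at surgery. Between 4 and 7 mice were injected per combination of sex, genotype and treatment, and 10000 to 30000 macrophages or 200000 to 500000 microglia went into an RNA preparation for SMART-seq2, which copies full-length mRNA. Each population has 8 expression tables, 1 for every sex, genotype and treatment, and the labels do not state whether a table is 1 of the sequenced triplicates or their pool. The study left MONO-CD163KO males out, and here they enter the levels but not the main tests.

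T cells need a costimulatory signal beside their antigen receptor, and antigen-presenting cells give it through CD80 and CD86, which bind CD28 or, with an inhibitory outcome, CTLA-4. CD40 receives CD40 ligand from T cells and licenses the presenting cell. The checkpoint proteins act in the other direction: PD-L1 and PD-L2 bind PD-1 on T cells, while TIM-3, CD200R1 and SIRPα restrain the myeloid cell itself, the last of them after binding CD47 on neighbouring cells. In the healthy brain, microglia are known to carry SIRPα, VISTA, TIM-3 and CD200R1.

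The sequences that bear on the results are given first. The genes lie on chromosomes 2 (Sirpa, chr2:129591042-129632228, and Cd40, chr2:165055614-165071654), 6 (Lag3, chr6:124904359-124912434), 10 (Vsir, chr10:60346851-60430294), 11 (Havcr2, chr11:46454931-46481255), 16 (Cd86, chr16:36568956-36666158, Cd80, chr16:38457430-38495958, and Cd200r1, chr16:44765736-44794977) and 19 (Cd274, chr19:29362107-29388095, and Pdcd1lg2, chr19:29410919-29472927) of GRCm38.p6, the assembly known as mm10. Cd274 and Pdcd1lg2 are neighbours. The files hold 6 transcripts of Sirpa, 4 of Cd40, 2 of Vsir and 1 of each other gene. The transcripts of Vsir differ in coding exon 6, which starts 3 bases later in the shorter one (chr10:60368529-60368531, + strand); the capitals mark the bases that only the longer one holds.
Vsir NM_028732: gaggatggacagCAGcaacacccaagg
Vsir NM_001159572: gaggatggacagcaacacccaagg

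The shortest transcript of Sirpa leaves out 3 coding exons of 1011 bases in all, so that its coding part has 516 bases where NM_001355160 has 1527; the exons left out encode most of the part outside the cell. The lines show the last 15 bases of the first coding exon, in lower case, and the first 15 of the exon that follows it, in capitals (chr2:129618457 onward in the shortest form, chr2:129608904 onward in the other).
Sirpa NM_001291022: cctgtttctgtacagATAATAATGCTACCC
Sirpa NM_001355160: cctgtttctgtacagGAGCCACGGGGAAGG

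RefSeq promoter sequences (GRCm38.p6) were matched for 5 of the 10 genes: Cd80, Cd274, Pdcd1lg2, Vsir and Havcr2. The 250 bases before the start in that table are shown for Havcr2 and Vsir, which were both lower in macrophages, and for Cd274, which was not called. For Cd274 the start in the RefSeq promoter table lies within the gene span given above, so its window does as well. All 3 windows lie on the + strand, and capitals mark matches to the core site of the myeloid factor PU.1 (GAGGAA) or to the AP-1 site (TGANTCA), searched on both strands.
Havcr2, chr11:46454681-46454930: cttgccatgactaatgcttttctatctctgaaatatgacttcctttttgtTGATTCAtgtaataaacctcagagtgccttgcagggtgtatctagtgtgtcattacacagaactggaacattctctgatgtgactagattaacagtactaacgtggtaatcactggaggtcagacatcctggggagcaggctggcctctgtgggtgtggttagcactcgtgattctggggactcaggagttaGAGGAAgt
Vsir, chr10:60346601-60346850: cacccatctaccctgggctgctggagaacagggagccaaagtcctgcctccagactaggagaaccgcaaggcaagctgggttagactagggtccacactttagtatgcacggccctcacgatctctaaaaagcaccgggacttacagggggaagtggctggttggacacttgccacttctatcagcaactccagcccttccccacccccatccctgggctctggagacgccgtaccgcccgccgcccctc
Cd274, chr19:29367188-29367437: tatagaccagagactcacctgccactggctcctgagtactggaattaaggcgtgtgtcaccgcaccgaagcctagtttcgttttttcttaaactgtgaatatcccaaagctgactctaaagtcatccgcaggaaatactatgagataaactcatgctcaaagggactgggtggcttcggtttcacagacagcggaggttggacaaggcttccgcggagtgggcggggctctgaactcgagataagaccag
The Havcr2 promoter held a PU.1 core 8 bases before the start and an AP-1 site 200 bases before it. Of 32851 promoters, 23.3% held GAGGAA and 6.75% held TGANTCA. Neither was found in the Vsir or Cd274 window. Of the promoters not shown, that of Pdcd1lg2 held a PU.1 core 82 bases before the start, and that of Cd80 an AP-1 site 42 bases before it. The STAT letters TTCNNNGAA (7.02% of promoters), the E-box CACGTG (6.02%) and the interferon response element (2.98%) were found in none of the 5 promoters, and the NF-kappaB motif (45.8%) was found in those of Cd80 and Pdcd1lg2.

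Estimated counts summed to between 8648751 and 21433841 per library. The deleted gene was read first: Cd163 had 0 or 1 estimated counts in the 4 CD163KO macrophage libraries and 748 to 5275 in the 4 WT ones. Microglia held 0 to 101 counts of it, so the genotype of those libraries is not checked by this gene. The library labelled microglia of MONO-CD163KO females held 421 counts of the Y-linked gene Ddx3y, against 0 to 2 in the other 3 female microglia libraries. Among macrophages, the PFF-WT males stood apart (Pearson's r of log2 levels across genes 0.72 to 0.75 with the other 7), with 9524 transcripts listed where another listed 16626. Summed levels of 10 homeostatic microglia markers were 1088.1 to 3221.3 scaled FPKM in macrophages and 7979.9 to 98958.7 in microglia, and those of 9 border-associated macrophage markers 2994.9 to 6327.0 and 44.6 to 83.2. The macrophage gate also held neutrophil markers (52618.9 to 329326.8 over 10 genes, against 485.0 to 3223.7 in microglia), monocyte markers (917.0 to 2897.6 over 9 genes), dendritic cell markers (634.0 to 2245.5 over 9 genes) and NK cell markers (91.7 to 238.0 over 7 genes). S100a8 alone held 32331.4 to 233719.2 of the neutrophil sum in macrophages, and Cxcr2 of that list overlapped between the populations (35.7 to 88.7 in macrophages and 4.83 to 204 in microglia), while Nkg7 held 68.9 to 171 of the NK cell sum. T cell markers summed to 12.0 to 29.2 over 9 genes in macrophages and 0.267 to 2.27 in microglia. Those of B cells overlapped, at 26.0 to 87.0 over 5 genes in macrophages and 28.1 to 40.7 in microglia, mostly from Cd79b (20.3 to 60.4 and 27.8 to 40.3). Neural, vascular, choroid plexus and pituitary markers ran from 109.0 to 18112.3 over 9 genes in macrophages, mostly from Ttr of the choroid plexus (up to 14352.2), and from 267.0 to 1281.0 in microglia. Itgae of the dendritic cell list was at 0 in all 8 macrophage libraries, and Cd3d and Fcmr were at 0 in all 8 microglia libraries. In these bulk libraries, fewer cells of a type and less RNA per cell cannot be told apart. Levels below are scaled FPKM, that is deposited FPKM (reads per length and library) divided by the TMM factor of the library, so that genes can be set side by side.

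In both populations Sirpa, Vsir and Cd86 were among the 4 genes of the list with the most RNA per length, and Pdcd1lg2 had the least. In macrophages the medians over 8 libraries ran from Cd86 (81.5 scaled FPKM), Sirpa (76.9) and Vsir (64.9) through Cd200r1 (21.9), Cd40 (11.4), Havcr2 (10.2), Lag3 (5.42), Cd80 (1.81) and Cd274 (1.16) to Pdcd1lg2 (0). In microglia they ran from Sirpa (315), Vsir (242), Lag3 (169), Cd86 (127) and Havcr2 (63.6) through Cd200r1 (6.34), Cd80 (2.32), Cd274 (0.828) and Cd40 (0.538) to Pdcd1lg2 (0). In macrophages the ranges of all neighbours in this order overlapped. In microglia they did as well, except that Cd86 (99.2 to 148) lay above Havcr2 (48.9 to 75.5) and Havcr2 above Cd200r1 (at most 9.34). The place of a gene in the order is therefore a description of the medians.

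**Figure D1:**
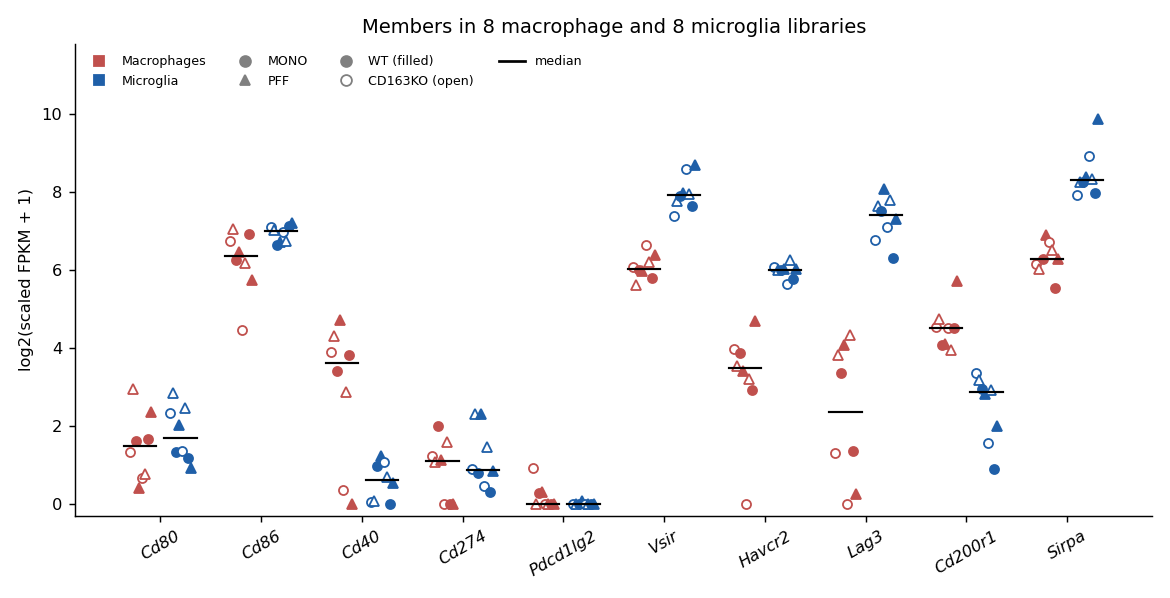
Levels of the 10 genes as log2(scaled FPKM + 1), vertical axis, in each of 8 macrophage (red) and 8 microglia (blue) libraries; circles are MONO and triangles PFF libraries, filled symbols WT and open ones CD163KO, and black lines the medians. Havcr2, Lag3, Vsir and Sirpa of all 8 microglia libraries lie above all macrophage libraries, Cd200r1 lies below them, and the other 5 genes overlap.

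The first comparison asked how the 2 sorted populations differ, with the libraries of the same sex, genotype and treatment as pairs. Microglia had more RNA of 4 inhibitory molecules, Havcr2, Lag3, Vsir and Sirpa, and macrophages more of 1, Cd200r1. These 5 of the 9 genes tested passed edgeR's quasi-likelihood test at an FDR of 0.05 over 7 pairs, and 18.2% of all 13704 genes tested did (11.6% higher and 6.64% lower in macrophages). The median log2 difference, macrophages minus microglia, was -1.44 over the 9 genes and -0.37 over all genes tested. Pdcd1lg2 did not pass the filter on low counts. On the level scale, 4 of the 10 genes had 8 macrophage libraries all below the 8 microglia libraries, which held for 5.16% of genes, and 1 had them all above, which held for 6.52%.

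Lag3, a receptor that binds MHC class II and has also been described as a receptor for α-syn fibrils, had the largest difference among the genes called. Its level was 0 to 19.1 scaled FPKM in macrophages (median 5.42) and 78.1 to 270 in microglia (median 169), and the groups did not overlap. The log2 difference was -5.07 (SE 0.66, n = 7 pairs, adjusted p = 2.5e-04 in edgeR). Macrophages with the least Lag3 were the MONO-CD163KO, MONO-WT and PFF-WT males and the MONO-CD163KO females (0 to 1.57). The homeostatic microglia marker sum was 1088.1 to 1293.5 in these 3 male libraries and 2041.0 to 3221.3 in the other 5. This separation rests on the TMM factors, which were 0.875 to 1.55 in the 3 and 0.324 to 0.691 in the other 5. On FPKM as deposited the sums of the 3 did not lie below those of the other 5. The part of the marker sum in the Lag3 level was not tested. Havcr2, which binds galectin-9 and phosphatidylserine, stood at 0 to 25.0 in macrophages (median 10.2) and at 48.9 to 75.5 in microglia (median 63.6). Its log2 difference was -2.48 (SE 0.27, adjusted p = 6.6e-05 in edgeR). Macrophages ranged from none in MONO-CD163KO males to 25.0 in PFF-WT males. On FPKM as deposited, without the scaling, the highest macrophage library (33.6) overlapped the lowest of microglia (27.8) for Havcr2, while Lag3, Vsir and Sirpa still did not overlap.

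Vsir, a B7-family checkpoint of myeloid cells and T cells, was at 47.8 to 98.3 in macrophages (median 64.9) and 167 to 415 in microglia (median 242), with a log2 difference of -1.93 (SE 0.22, adjusted p = 1.0e-04 in edgeR). Sirpa, which recruits phosphatases and limits phagocytosis when it binds CD47, was at 45.2 to 118 in macrophages (median 76.9) and 242 to 944 in microglia (median 315), with a log2 difference of -2.12 (SE 0.28, adjusted p = 2.5e-04 in edgeR). Neither pair of groups overlapped. Within microglia both genes were highest in the same libraries, the PFF-WT males (415 and 944) and the MONO-CD163KO males (386 and 484). These 2 libraries also had the highest sums of homeostatic microglia markers, 98958.7 and 46248.1, where the other 6 had 7979.9 to 10424.1. This order turned with the scaling: on FPKM as deposited the same 2 libraries were the lowest of the 8, with 179 and 317 for Vsir (332 or more in the other 6) and 408 and 397 for Sirpa (482 to 658). The order of the microglia libraries for these genes therefore rests on the TMM factors, and the part of the marker sums in it was not tested.

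Cd200r1, the receptor for CD200 of neurons and endothelium, went the other way. It was at 14.6 to 51.9 in macrophages (median 21.9) and 0.854 to 9.34 in microglia (median 6.34), higher in macrophages in 8 of 8 pairs, with a log2 difference of 2.09 (SE 0.55, adjusted p = 0.02 in edgeR). This call depended on the scaling of the libraries. With library totals alone the log2 difference was 0.37 (adjusted p = 0.73 in edgeR), and on FPKM as deposited the groups overlapped, with macrophages higher in 3 of 8 pairs.

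Cd40 had the largest SE of the 9 genes in this comparison. In macrophages 6 libraries held from 6.35 scaled FPKM (PFF-CD163KO males) to 25.6 (PFF-WT females), while MONO-CD163KO males held 0.283 and PFF-WT males 0 (median of the 8, 11.4). Microglia held 0 to 1.35 (0 to 68 estimated counts). Thus 6 macrophage libraries lay above all microglia libraries, and the remaining 2 were the macrophage libraries least like the others across all genes. The log2 difference of 5.06 (SE 1.73) did not pass the test (adjusted p = 0.066 in edgeR), and it did without the pair of PFF-WT males (5.64, SE 0.95, adjusted p = 4.6e-04 in edgeR). The summed level of the 9 dendritic cell markers in macrophages was lowest in the same 2 libraries (634 and 775, against 1108.1 to 2245.5). Their place rests on the TMM factors, which were 1.55 and 1.34 in these 2 and 0.324 in PFF-WT females. On FPKM as deposited PFF-WT females lay below both. In addition 1 gene, Cd209a, made up most of the sum (590 to 2203.5). Of the other markers, Ccr7 (0 to 7.06 in macrophages and 0 to 0.602 in microglia), Clec9a (0 to 6.94 and 0 to 0.208), Flt3 (0.246 to 5.02 and 0 to 0.324) and Zbtb46 (0.955 to 11.6 and 0 to 0.996) reached higher in macrophages, the ranges overlapping in all 4. Batf3 (22.5 to 53.9 and 19.2 to 46.0) and Xcr1 (0.104 to 2.5 and 0.225 to 5.17) overlapped as well, Fscn1 was lower in macrophages (3.11 to 8.97 and 23.5 to 81.3), and Itgae was at 0 there. The sum of the 5 B cell markers found, mostly Cd79b, was 87.0 and 26.0 in the 2 libraries, the highest and the lowest of the 8 macrophage libraries, with 28.1 to 40.7 in microglia. The part of either cell type in the Cd40 level was not tested.

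The costimulatory ligands Cd80 and Cd86 did not pass. Cd86 was well expressed in both populations, at 21.1 to 131 in macrophages (median 81.5) and 99.2 to 148 in microglia (median 127), with a log2 difference of -0.48 (SE 0.22, adjusted p = 0.17 in edgeR). Its value was close to the median shift of all genes, and the call depended on the scaling: with library totals alone it was -1.90 (adjusted p = 0.0014 in edgeR). Cd80 was scarce, at 0.339 to 6.74 in macrophages (4 to 171 estimated counts) and 0.903 to 6.16 in microglia (12 to 342 counts), with a log2 difference of -0.50 (SE 0.99, adjusted p = 0.77 in edgeR). Thus Cd86 had more RNA per length than Cd80 in each of the 16 libraries.

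The PD-1 ligands were scarce. Cd274 was at 0 to 2.98 in macrophages (0 in MONO-CD163KO, MONO-WT and PFF-WT males) and at 0.241 to 3.97 in microglia, with a log2 difference of -1.44 (SE 1.35, adjusted p = 0.49 in edgeR). Pdcd1lg2 had counts in 3 macrophage libraries, all of females (17 in MONO-CD163KO, 7 in MONO-WT and 6 in PFF-WT), and in 1 microglia library (6 in PFF-WT females). It was listed in none of the other 12.

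**Figure D2:**
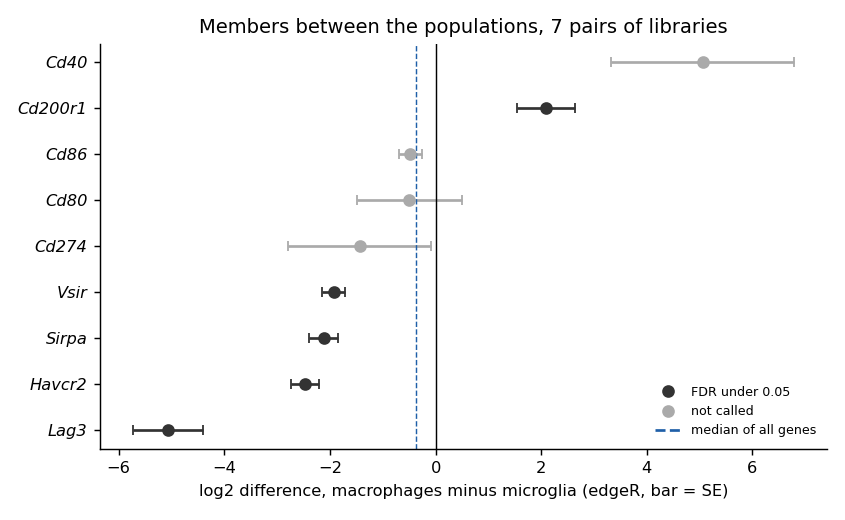
Log2 difference between macrophages and microglia (horizontal axis, macrophages minus microglia) for the 9 genes tested over 7 pairs of libraries; points are edgeR estimates, bars their SE, dark points passed an FDR of 0.05, and the dashed line is the median of all genes (-0.37). Lag3, Havcr2, Sirpa and Vsir lie to the left, Cd200r1 to the right, and Cd40 has the longest bar.

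The second comparison asked whether PFF changed these genes relative to MONO. In macrophages 0 of the 9 genes tested and 0% of 11988 genes passed, and in microglia 0 of 9 and 0% of 12725 genes, in edgeR with additive sex and genotype terms over 7 libraries. At an unadjusted p under 0.05 there were 0 of the 9 in macrophages, beside 1.04% of all genes, and 2 in microglia, beside 6.01%. DESeq2 and limma also called 0 of them in either population. The p-values rest on the spread left after these terms, as there is 1 library per combination.

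The 2 genes in microglia were Cd274 and Lag3, which were also the 2 of 10 genes higher in PFF in 4 of 4 matched pairs, as were 8.62% of all 10302 genes compared. Cd274 was at 0.734 in MONO-WT females and 3.97 in PFF-WT females, 0.869 and 3.96 in CD163KO females, 0.241 and 0.788 in WT males, and 0.39 and 1.78 in CD163KO males. The lowest PFF library was below the highest MONO library. The log2 difference was 2.28 (SE 0.66, n = 7 libraries, unadjusted p = 0.0055 and adjusted p = 0.78 in edgeR), and DESeq2 gave 2.25 (adjusted p = 0.052). Lag3 was at 181 and 270 in WT females, 108 and 198 in CD163KO females, 78.1 and 157 in WT males, and 137 and 223 in CD163KO males. Its log2 difference was 0.99 (SE 0.43, unadjusted p = 0.042 and adjusted p = 0.78 in edgeR). The MONO and PFF libraries again overlapped, since MONO-WT females were above PFF-WT males. On FPKM as deposited, both genes were higher in PFF in 3 of 4 pairs. The microglia library of MONO-CD163KO females, with the Y-linked counts, enters 1 of these pairs. Without it the log2 differences were 2.17 for Cd274 and 0.82 for Lag3. Another pair, that of CD163KO males, includes the MONO-CD163KO males that the study left out and the main fits do not use. The WT pairs include neither library.

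In macrophages no gene of the list was higher or lower in PFF in all 4 pairs (4.28% and 6.03% of all genes were). Lag3 was at 9.27 in MONO-WT and 15.8 in PFF-WT females, 1.47 and 13.1 in CD163KO females, 0 and 19.1 in CD163KO males, and 1.57 and 0.201 in WT males. So it was higher with PFF in 3 of 4 pairs on this scale, 1 of them with the MONO-CD163KO males that the study left out. On FPKM as deposited it was higher in 2 of 4, since WT females turned (6.41 with MONO and 5.11 with PFF). Whether the PFF difference varied with the population was tested as an interaction, for which 0 of 9 genes and 0% of 13704 genes passed edgeR; 0 of the 9 had an unadjusted p under 0.05, beside 0.89% of all genes, and DESeq2 and limma called 0 of them.

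The third comparison asked whether deletion of CD163 changed these genes. Of the 9 genes tested, 0 passed in macrophages, where 0.00834% of genes (1 of 11988, Cd163 itself) did, and 0 in microglia, where 0% of 12725 did, in edgeR. At an unadjusted p under 0.05 there were 0 of 9 in macrophages, beside 0.659% of all genes, and 0 of 9 in microglia, beside 1.3%, and DESeq2 and limma called 0. The interaction of population and genotype gave 0 of 9 as well (0% of 13704 genes), with 0 at an unadjusted p under 0.05 (0.613% of all genes) and 0 by DESeq2 or limma.

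In microglia Cd80 and Cd200r1 were higher in CD163KO in 4 of 4 matched pairs, as were 4.36% of all genes, and no gene of the list was lower in all 4 (2.92% of all genes). Cd80 was at 1.54 in WT and 4.08 in CD163KO MONO females, 3.06 and 6.16 in PFF females, 1.27 and 1.59 in MONO males, and 0.903 and 4.51 in PFF males. Cd200r1 was at 6.76 and 9.34, 6.03 and 8.01, 0.854 and 1.94, and 3.01 and 6.64 in the same order. On FPKM as deposited each was higher in 3 of 4 pairs. The pair of MONO females includes the microglia library with the Y-linked counts. That of MONO males includes the MONO-CD163KO males that the study left out, and the pairs with PFF include neither. In macrophages no gene of the list kept 1 direction in the 4 pairs (5.4% of genes were higher and 3.74% lower in all 4).

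**Figure D3:**
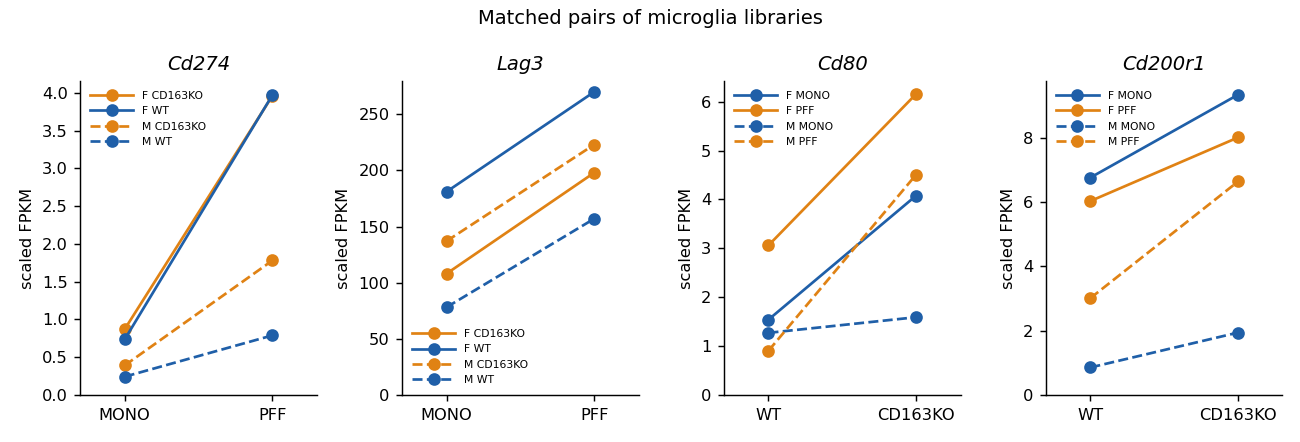
Scaled FPKM (vertical axes, from 0) of 4 genes in matched pairs of microglia libraries, MONO to PFF for Cd274 and Lag3 and WT to CD163KO for Cd80 and Cd200r1; solid lines are females, dashed lines males, and colors give the genotype or treatment held fixed. All 4 lines of each panel go up, while none of the 4 genes passed the test.

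Single combinations were then compared in females, as the study did for PFF-CD163KO. Macrophages of PFF-CD163KO females, against those of MONO-CD163KO females, differed by at least 1 on the log2(scaled FPKM + 1) scale in 2 of the 10 genes, Cd80 (6.74 against 1.54) and Lag3 (13.1 against 1.47), both higher; 23.6% of all genes differed so. Against PFF-WT females only Cd80 did so among the 10 (6.74 against 0.339), beside 22.4% of all genes. Their microglia differed from those of MONO-CD163KO females in Cd274 alone (14.4% of all genes), and from those of PFF-WT females in Cd40 alone, which was lower (0.056 against 1.35, 5.71% of all genes). These differences compare 2 libraries and have no replicate check, and the microglia library of MONO-CD163KO females holds the Y-linked counts. Over the 16 such pairs, 40 of 160 values differed by at least 1 on that scale. The 4 macrophage pairs of males, each of which includes MONO-CD163KO or PFF-WT, held 21 of the 40.

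In the other comparisons of female macrophages, PFF-WT differed from MONO-WT in 2 genes, with Cd40 higher and Cd80 lower (19.6% of all genes), and MONO-CD163KO from MONO-WT in 1, Lag3, which was lower (23.9%). In male macrophages, PFF-WT differed from MONO-WT in 5 genes (67.7% of all genes), PFF-CD163KO from MONO-CD163KO in 5 (51.9%), MONO-CD163KO from MONO-WT in 5 (53.6%) and PFF-CD163KO from PFF-WT in 6 (68.8%). All 4 pairs of male macrophages thus had higher shares of all genes than any pair of female macrophages. In female microglia, Cd274 was higher in PFF-WT than in MONO-WT (11.9% of all genes), and Cd80 in MONO-CD163KO than in MONO-WT (22.7%). The MONO-CD163KO library of the latter is the one with the Y-linked counts. In male microglia, Lag3, Vsir, Cd200r1 and Sirpa were higher in PFF-WT than in MONO-WT (31.5%), and Cd80 and Cd200r1 in PFF-CD163KO than in MONO-CD163KO (17.7%). Cd40 was higher in MONO-CD163KO than in MONO-WT males (32.1%), and PFF-CD163KO males had more Cd80 and less Sirpa than PFF-WT males (16.3%). On FPKM as deposited, 6 of the 40 differences turned in direction. They were all 4 of PFF-WT against MONO-WT male microglia (Lag3 68.0 and 156, Vsir 179 and 394, Cd200r1 1.3 and 1.7, Sirpa 408 and 503), that of Sirpa between PFF-CD163KO (631) and PFF-WT (408) male microglia, and that of Cd86 between PFF-CD163KO (29.1) and MONO-CD163KO (32.7) male macrophages.

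Whether the PFF difference depended on the genotype was tested within each population. In macrophages 0 of 10 genes passed edgeR (0% of 13020 genes), and in microglia 0 of 9, where 0.0211% of 14225 genes did. Among those were the Y-linked genes Ddx3y and Eif2s3y, named after their values were seen. In microglia the CD163KO MONO library of this fit is that of MONO-CD163KO females, which holds counts of both (421 and 173). A genotype by treatment difference in microglia therefore cannot be told apart from a difference of that library. An unadjusted p under 0.05 was found for 0 of the list, beside 0.453% of all genes in macrophages and 4.77% in microglia, and DESeq2 and limma called 0 of the list. Only 1 library per population holds CD163KO with MONO in these fits, so they rest on few libraries, and without the macrophages of PFF-WT females, which leaves 1 residual degree of freedom, 3 of the list passed, beside 26.3% of all genes.

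Males and females were compared in the same fits. In macrophages 0 of 9 genes passed edgeR, with 0 at an unadjusted p under 0.05 (1.27% of all genes), and in microglia 0 of 9, with 2 at that level (1.69% of all genes); 0% of genes passed in either, and DESeq2 and limma called 0 of the list. The 2 were Cd274, with a log2 difference, males minus females, of -1.62 (SE 0.63, n = 7 libraries, adjusted p = 0.9996 in edgeR), and Cd200r1, with -1.36 (SE 0.60, adjusted p = 0.9996 in edgeR). Without the MONO-WT males the difference of Cd200r1 was -0.56. Male microglia held 0.241 to 1.78 scaled FPKM of Cd274 and female ones 0.734 to 3.97. For Cd200r1 the ranges were 0.854 to 6.64 in males and 6.03 to 9.34 in females. The highest of these, 9.34, came from the library labelled MONO-CD163KO females, which holds Y-linked counts; without it the differences were -1.66 for Cd274 and -1.33 for Cd200r1, and neither passed.

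The shares of the transcripts shown above, as RSEM estimated them, varied between libraries. The shortest Sirpa transcript took 77.9% of the estimated Sirpa counts in microglia of MONO-CD163KO females, 91.5% in those of MONO-CD163KO males, 71.9% in MONO-WT males and 84.6% in PFF-WT males. It took 33.4% in MONO-WT females, 39.6% in PFF-CD163KO females, 16.7% in PFF-CD163KO males and 7.86% in PFF-WT females. The share was lower with PFF than with MONO in 3 of 4 pairs, and higher in WT males. The library of MONO-CD163KO females, which holds the Y-linked counts, enters 1 of these pairs, and without it the share was lower with PFF in 2 of 3. Another pair, that of CD163KO males, includes the MONO-CD163KO males that the study left out. The WT pairs include neither, and there the share was lower with PFF in females and higher in males. In macrophages, with 1282 to 11016 Sirpa counts, it was 0% to 50.1%. RSEM divides reads from shared exons between transcripts, so these shares are estimates, and Sirpa also shares sequence with genes of the Sirpb family. Over 561 genes with a transcript at least 15% shorter than their longest and 100 counts in each microglia library, the median share of the shortest was 15.2% to 24.4% in the 4 microglia libraries with the highest Sirpa share and 10.9% to 14.3% in the other 4, and its part in the Sirpa share was not tested. The shorter Vsir transcript took 15.7% to 24.1% of the Vsir counts in microglia and 16.5% to 58.9% in macrophages, with the highest shares in macrophages of PFF-CD163KO (58.9%) and MONO-CD163KO (42.5%) females. No test was made on these shares.

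**Figure D4:**
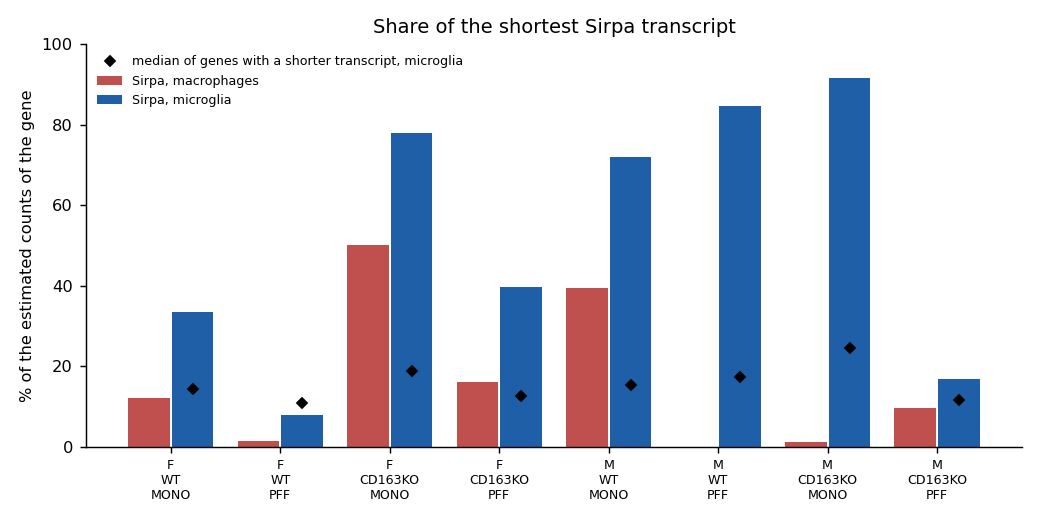
Percentage of the estimated Sirpa counts assigned to the shortest transcript (vertical axis) in each combination of sex, genotype and treatment, macrophages in red and microglia in blue; diamonds give the median share of the shortest transcript over 561 genes in microglia. The microglia bars run from 7.86% to 91.5% and the diamonds from 10.9% to 24.4%.

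The other genes of these pathways were read from 6 lists, in the test between populations, in which 11.6% of all genes were higher and 6.64% lower in macrophages. These counts depended on the scaling, and those with library totals alone, where 4.37% of all genes were higher and 41.7% lower, are given beside them. They also depended on the pair left out: without the PFF-WT males 19.2% of all genes were higher and 16.5% lower, and without the MONO-CD163KO females 8.96% and 4.08%. Of the B7 family and its receptors, 2 of the 8 tested were higher in macrophages (Vsig4 and Btla) and 1 lower (Cd276, log2 difference -4.41, SE 1.24, adjusted p = 0.028 in edgeR), and with library totals 2 and 4. Of the fits that left out 1 pair, Cd276 passed only in those without the MONO-CD163KO females and without the PFF-WT males, and in the latter 3 of the list were higher and 3 lower. Icosl, the ligand of ICOS, did not pass (7.05 to 28.9 scaled FPKM in macrophages and 10.5 to 27.0 in microglia), nor did Pdcd1, which encodes PD-1 (0 to 3.27 and 1.81 to 5.7). Of the TNF family of costimulatory molecules, 3 of 8 were higher in macrophages and 0 lower (3 and 1 with library totals). Tnfsf9, the ligand of 4-1BB, was at 38.9 to 123 in macrophages and 0.622 to 5.46 in microglia (log2 difference 4.70, SE 0.30, adjusted p = 1.9e-06 in edgeR). Tnfrsf18 (GITR) and Tnfsf14 (LIGHT) had medians of 18.5 and 3.94 in macrophages and 0 in microglia. When 1 pair was left out, 1 to 4 of the list were higher and 0 lower. Tnfsf9 alone passed without the MONO-CD163KO females, and 4 passed without the PFF-WT males.

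Of 12 inhibitory receptors of myeloid cells outside the 10, 7 were higher in macrophages and 1 lower (7 to 9 and 1 when 1 pair was left out), and with library totals 3 and 2. Lilrb4a (216 to 421 against 3.3 to 15.9 in microglia) and Cd72 (103 to 342 against 9.61 to 16.8) were among the 7, with log2 differences of 5.40 (SE 0.30, adjusted p = 8.7e-07 in edgeR) and 3.83 (SE 0.27, adjusted p = 3.4e-06 in edgeR). The other 5 of the 7 were Ceacam1, Clec12a, Clec4a2, Pilra and Pirb, with log2 differences from 1.10 (Ceacam1) to 7.54 (Clec12a). Lair1, a collagen receptor, was the 1 that was lower (40.3 to 53.3 against 86.3 to 222). Pirb and Lilrb4a belong to families of near-identical genes, between which reads may be split.

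Among 8 ligands and partners of the 10, 4 of the 7 tested were higher in macrophages, namely Cd47, Lgals3, Hmgb1 and Thbs1, and 0 lower, in each of the fits that left out 1 pair as well. With library totals 1 was higher (Lgals3) and 1 lower (Lgals9). Lgals3, a galectin that binds LAG-3, was at 318 to 771 in macrophages and 1.15 to 10.1 in microglia (log2 difference 6.27, SE 0.32, adjusted p = 5.5e-07 in edgeR). Lgals9, the galectin that binds TIM-3, was at 77.8 to 167 and 68.2 to 162 and did not pass (adjusted p = 0.88 in edgeR). Of 13 nectin and SLAM receptors, 3 were higher (Cd244a, Cd48 and Slamf7) and 1 lower (Nectin2), with 3 or 4 and 1 when 1 pair was left out, and with library totals 2 and 2. Slamf9 (21.3 to 350 and 35.7 to 109) and Cd84 (36.5 to 73.3 and 45.5 to 66.7) did not pass. Of 12 signalling genes downstream, 3 were higher (Dok2, Traf1 and Skap2) and 1 lower (Rasa1), against 2 and 6 with library totals. When 1 pair was left out, 1 to 3 were higher and 0 to 4 lower. Dok2 and Rasa1 then passed only without the PFF-WT males, where 4 genes were lower, and without the MONO-CD163KO females Skap2 alone passed. Ptpn6, the SHP-1 phosphatase that inhibitory receptors recruit, was at 113 to 224 and 94.6 to 137 (adjusted p = 0.17 in edgeR), and the adaptor Dok1 at 12.6 to 20.9 and 12.0 to 34.3 (adjusted p = 0.20 in edgeR). In the fits of treatment, genotype and sex within a population, 0 genes of the 6 lists passed.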

How the data were processed

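RNA of macrophages and microglia was sequenced by SMART-seq2 in 16 libraries. Per the study's methods and the submitters' processing notes, reads were mapped with Bowtie2 (build mm10) and quantified with RSEM; DESeq2 is also named. The deposited estimated counts are not normalized, and the authors' FPKM are scaled to transcript length and library; a transcript that a table does not list was set to 0. Symbols came from RefSeq (GRCm38.p6) for 27632 of 27787 transcripts, which were summed to 18580 genes; those without a symbol held at most 0.128% of a library's counts and were left out.

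Counts were rounded and tested with edgeR 4.0.16 (R 4.3.3) by the quasi-likelihood test with TMM factors, filterByExpr and Benjamini-Hochberg adjustment over all genes tested, at an FDR of 0.05. Populations were compared over 14 libraries with the combination of sex, genotype and treatment as a pair block, and treatment, genotype and sex over 7 libraries per population with additive terms. Male CD163KO MONO libraries were left out, as in the study. Libraries are 1 per combination, so p-values measure the spread among these libraries, which may be technical. Differences between 2 libraries used log2(scaled FPKM + 1) and were counted at 1 over genes with at least 1 in either library. Background shares for directions and overlap used genes with a scaled FPKM of at least 1 in 2 libraries. The batches of mice that the study mentions could not be told apart, since no label assigns a library to one.

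Alternatives were DESeq2 1.42.0, limma 3.58.1 on log2(FPKM + 1), other size factors, no filter, other pseudocounts and leaving out libraries; a fit without 2 doubtful combinations was chosen after seeing the data. The tests were run on simulated data with known changes. The 10 genes, the pathway lists and the cell type markers were chosen with earlier results of these data known. Genes named are these 10, the 3 with the highest mean scaled FPKM of each pathway list, those called in it, and for each of the 10 with a mean of at least 1 the 2 genes most like it over the 16 libraries. Genes called in a pathway list and those named for genotype by treatment were chosen after their values were seen. Transcript models came from GENCODE vM21 and promoters from RefSeq. Counting error only is covered by counts, since PCR copies are not separate molecules. Some items are not reported here.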

Additional observations from a re-analysis of the deposited data

Results flagged for a closer look

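In 20 sets of 8 libraries (10 genes in 2 populations), 4 held a library whose distance from its nearest neighbour took more than the 95% critical share of the whole range (Dixon's ratio). For a single normal sample chance gives about 1 in 20, but here 3040 of 11586 genes in macrophages and 1853 of 11592 in microglia held such a library, so 4 of 20 sets is near the share over all genes. In microglia of PFF-WT males Sirpa was at 944 scaled FPKM, the next library was at 484, and the gap took 0.656 of the range. On FPKM as deposited this library was at 408, the second lowest of the 8 (397 to 658), so its place rests on the TMM factor. In macrophages of PFF-WT males Cd200r1 was at 51.9, with the next at 25.7 (0.702 of the range). Pdcd1lg2 was at 0.913 in macrophages of MONO-CD163KO females, with the next at 0.247 (0.73 of the range), and at 0.0562 in microglia of PFF-WT females, where the other 7 libraries were at 0. These rest on 17 and 6 estimated counts. No explanation was tested.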

How the results depend on the processing

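Across 363 recomputed values of 26 results, 347 kept their direction and their side of the threshold, 10 passed it where the value reported did not, 3 no longer passed, 3 counts moved by over 1.5 times and 0 reversed. Havcr2, Lag3, Vsir and Sirpa were called lower in macrophages under every alternative run. Between populations 5 genes of the list were called, and 5 or 6 when 1 pair was left out. Cd200r1 was lost with library totals (2.09 to 0.37), limma on deposited FPKM (0.66) and no filter (1.73, adjusted p = 0.06). Cd40 was gained with DESeq2 (5.17), limma (1.86), no pair block (4.65), without the PFF-WT males (5.64), and without both doubtful combinations, a choice made after seeing the data (5.10). Cd86 was gained with library totals (-1.90), limma (-1.85) and no filter (-0.82), and Cd274 with library totals (-3.15) and limma (-1.12). Library totals moved the median of all genes from -0.37 to -1.96, limma to -1.05 and no filter to -0.91; of all calls, 63.6% were higher in macrophages, against 9.5%, 10.7% and 46.5% under these. The 2499 genes called became 6308 with library totals, 6329 with limma, 4733 with DESeq2 (47.2% higher) and 4869 without the PFF-WT males, with a range of 1767 to 6329. The fit without the pair block called 3036 genes and changed no call of the list but that of Cd40; libraries are paired by their combination of sex, genotype and treatment, since both gates were sorted from the same groups of mice.

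Within populations the count of the list stayed at 0 under every alternative but 1: for genotype by treatment in macrophages it was 0 to 3 when 1 library was left out, with 3 without the PFF-WT females, where 3378 genes were called. Over all genes, the alternatives called 0 to 13 (PFF in macrophages), 0 to 25 (PFF in microglia), 0 to 5 and 0 to 19 (genotype), 0 to 17 and 0 to 20 (sex), 0 to 411 (genotype by treatment in microglia), 0 to 38 (population by treatment) and 0 to 42 (population by genotype). The 40 differences between single libraries became 61 on FPKM as deposited, where 6 of the 40 turned in direction, and 23 with a pseudocount of 5. Genotype by treatment could not be fitted without the MONO-CD163KO females in either population, nor in microglia without both doubtful combinations. The causes of these shifts were not tested. Pdcd1lg2 had at most 17 counts in a library, so counting error alone makes its values imprecise.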

Other observations

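The genes whose log2(scaled FPKM + 1) was most like that of each gene over the 16 libraries, among 9989 genes with a mean of at least 1, are given as a description, since the libraries share 2 populations. For Sirpa they were the microglia genes Tmem119 (Pearson's r = 0.976) and Olfml3 (0.971), and for Vsir they were Sirpa (0.968) and Phyhd1 (0.963). Lag3 was most like Spint1 (0.979) and Mettl8 (0.963), and Havcr2 like Atp6v0a2 (0.966) and Cd34 (0.96). Spint1 was at 0.0129 to 9.48 scaled FPKM in macrophages and 28.5 to 60.4 in microglia. Cd40 was most like Fcmr (0.963) and Ccr7 (0.957), of which Fcmr was at 0 to 5.28 in macrophages and 0 in all 8 microglia libraries. Cd200r1 was most like Lipa (0.947), which encodes lysosomal acid lipase, and Map3k8 (0.935). Cd86 was most like Fez2 (0.961) and Ankmy2 (0.915). The scarce genes had weaker partners: Cd274 had Ap5b1 (0.831) and Abhd8 (0.82), and Cd80 had Tomm20 and Phospho2 (0.741 each).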
